A study of Mus musculus with 4 samples.

Results

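Interferon response genes are genes whose transcription rises when a cell senses an interferon, and 35 of them were followed here in adipocyte progenitors, cells that can give rise to fat cells. The 35 genes were listed by name, and their probes were found on the array by the gene name of the array's design or the current symbol of its accession, which gave 45 probes among the 55625 with a value on every array. Of the 35 genes, 34 had a probe well above background on both arrays of a genotype and were tested, among 24518 features (genes or unnamed transcribed regions) in all. The progenitors came from subcutaneous fat of FVB males aged 4 weeks, were sorted by flow cytometry and went into lysis with no culture step. There were 2 samples from wild-type mice and 2 from Adamts1 transgenic mice, with no treatment in either group, and each sample was read on its own single-colour array from Agilent. The Adamts1 protein is a metalloprotease that cells release and that cuts proteoglycans of the extracellular matrix. The promoter that drives the transgene and the cells that carry it are not given in the sources used here, and the labels do not say whether samples came from single or pooled animals, so the p-values rest on the spread among these samples alone, which may be technical.

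Interferons bind receptors at the cell surface, whose JAK kinases phosphorylate STAT transcription factors. A complex that holds STAT2 and IRF9 binds the interferon-stimulated response element in the promoters of target genes, while STAT dimers bind the gamma-activated sequence. The induced proteins block viral replication, sense viral nucleic acid, attach the ubiquitin-like protein ISG15 to other proteins and load peptides on MHC class I molecules.

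Promoter sequences were read first, since these elements can be seen in them. RefSeq start sites (build GRCm38.p6) were found for 26 of the 35 genes, and the stretch from 250 bases before to 50 after each start was searched on both strands. The core of the interferon-stimulated response element, which reads GAAA, any 2 bases, GAAA (on the other strand TTTC, any 2 bases, TTTC), was present for 10 of the 26 genes (38.5%), against 3.99% of the 27025 genes with such a stretch. The gamma-activated sequence, TTC, any 3 bases, GAA, which reads the same on both strands, was present for 8 of the 26 (30.8%), against 9.55% of all genes. Within the 250 bases before the start, 7 of the 26 genes held the core (26.9%, against 3.46% of all genes), among them Isg15, whose 3 cores overlap one another. These 7 are shown to let the elements be read beside the array values. Each line is 80 bases, 5′ to 3′ in the direction of transcription, with the bases covered by a core in capitals.
Isg15, chr4:156200850-156200929, minus strand: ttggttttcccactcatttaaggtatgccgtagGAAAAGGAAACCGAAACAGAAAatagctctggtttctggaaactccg
Ifit1, chr19:34640759-34640838, plus strand: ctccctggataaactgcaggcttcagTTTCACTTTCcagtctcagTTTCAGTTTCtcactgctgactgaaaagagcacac
Ifit3, chr19:34583362-34583441, plus strand: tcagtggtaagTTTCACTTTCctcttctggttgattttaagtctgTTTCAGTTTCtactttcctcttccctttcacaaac
Bst2, chr8:71537562-71537641, minus strand: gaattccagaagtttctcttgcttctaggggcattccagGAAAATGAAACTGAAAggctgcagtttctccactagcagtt
Oas3, chr5:120777700-120777779, minus strand: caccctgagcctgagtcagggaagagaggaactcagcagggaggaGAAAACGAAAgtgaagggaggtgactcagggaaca
Rsad2, chr12:26456538-26456617, minus strand: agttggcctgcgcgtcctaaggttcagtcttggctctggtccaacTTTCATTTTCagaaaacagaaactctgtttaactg
Stat2, chr10:128270248-128270327, plus strand: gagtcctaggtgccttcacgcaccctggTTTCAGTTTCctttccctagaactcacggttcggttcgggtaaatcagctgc
Ifit1, Ifit3 and Bst2 each held 2 cores, and Oas3, Rsad2 and Stat2 held 1. A match is a description of the letters and does not show that a factor binds there.

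The array's 75th percentile of signal was 239 and 333 on the wild-type arrays and 354 and 350 on the transgenic arrays, and 47.0% to 57.0% of spots were well above background, with wild-type array 1 the lowest. The 4 arrays carried the same scan date in the file headers. Levels below are log2 signals relative to each array's 75th percentile, so that 0 is that percentile, and they are given in the order wild-type array 1, wild-type array 2, transgenic array 1, transgenic array 2. The probe for Adamts1 itself stood at 6.65, 6.73, 6.77 and 6.82, a difference of 0.11 ± 0.09 (SE, limma, adjusted p = 0.573). All 12 markers of adipocyte progenitors were well above background on every array.

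Between the genotypes, 1 of the 34 genes was called higher in transgenic cells and 0 were called lower (limma, adjusted p under 0.05), against 0.967% of all features called higher and 0.759% called lower, or 1.73% in either direction. The gene was Trim25. At an unadjusted p under 0.05, 8 genes were higher (9.25% of all features) and 3 lower (9.76%). The difference between genotypes was above 0 for 28 genes and below 0 for 6, with a median of 0.19 on the log2 scale. Over all features the median was -0.02. Both transgenic arrays lay above both wild-type arrays for 16 genes (24.5% of all features) and below both for 5 (28.6%), and the groups overlapped for the other 13. In bulk RNA of this kind, a change in the number of cells of a type cannot be told apart from a change in RNA per cell. Of the 34 genes, 32 were above background on all 4 arrays, and their differences ran from -0.62 to 1.36 with a median of 0.18.

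**Figure D1:**
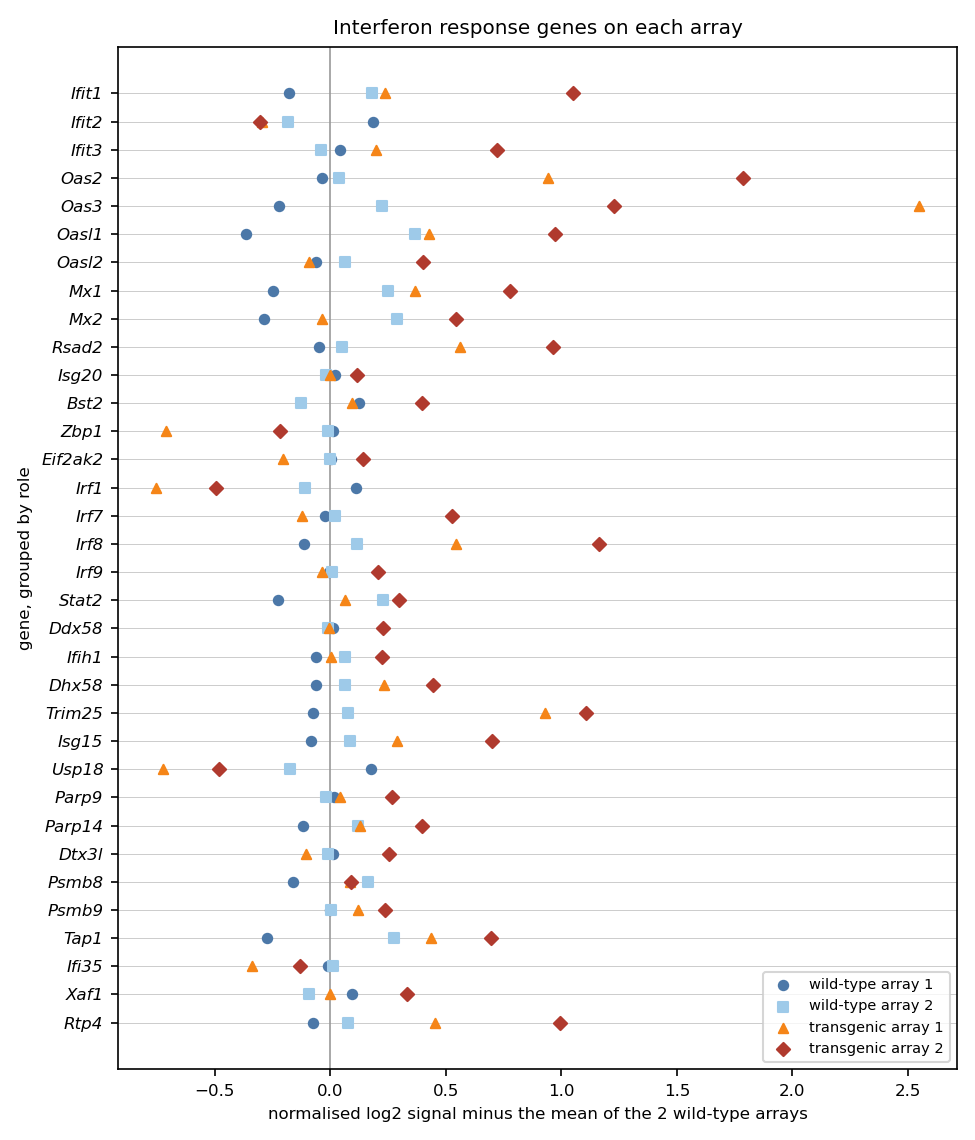
Level of each of the 34 tested interferon response genes (rows, grouped by role) on each of the 4 arrays, as log2 signal minus the mean of the wild-type arrays (x axis). Transgenic array 2 (diamonds) is the highest of the 4 arrays for 27 genes, and transgenic array 1 (triangles) often lies among the wild-type arrays.

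The gap between the transgenic arrays ran the same way for nearly all of these genes. Of the 34, 32 had a higher level on transgenic array 2 than on transgenic array 1 (94.1%), where 50.8% of all features did, and the exceptions were Ifit2 and Oas3. The median gap between these arrays was 0.28 for the genes and 0.003 for all features. Transgenic array 2 was the highest of the 4 arrays for 27 genes (79.4%), against 21.8% of all features. Against the wild-type mean, the median difference was 0.07 for transgenic array 1, with 20 genes above that mean, and 0.40 for transgenic array 2, with 29 above. Of all 24518 features, 11606 and 11720 were above that mean on transgenic arrays 1 and 2, with a median of -0.02 on each. Transgenic array 1 lay above both wild-type arrays for 16 genes and transgenic array 2 for 28, against 8148 and 8218 of all 24518 features. The gap between the transgenic arrays was larger than the difference between genotypes for 17 of the 34 genes, against 34.9% of all features. With 1 array on each side this gap has no replicate and was not tested. The wild-type arrays differed less evenly for these genes: 22 of 34 (64.7%) were higher on wild-type array 2, against 47.4% of all features, with a median gap of 0.09.

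**Figure D2:**
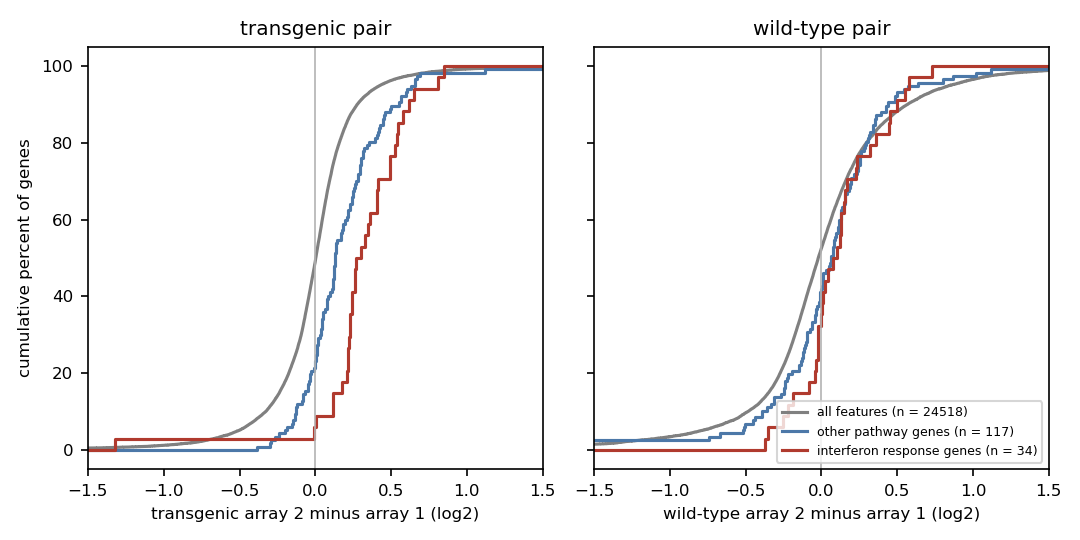
Cumulative percent of genes (y axis) against the log2 gap between the arrays of a genotype (x axis, array 2 minus array 1; left, transgenic; right, wild-type; values beyond 1.5 in either direction lie outside the axis) for the 34 interferon response genes, 117 other genes of the pathway and all 24518 features. In the transgenic pair the curve of the interferon response genes lies to the right of 0 for all but 2 genes, with a median of 0.28.

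**Figure D3:**
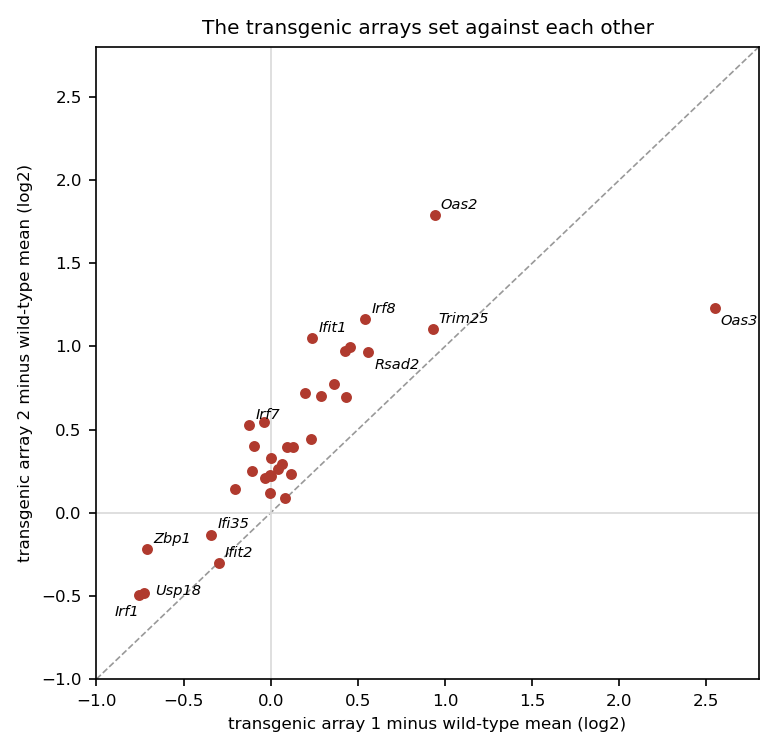
Each of the 34 genes by its log2 level on transgenic array 1 (x axis) and transgenic array 2 (y axis), both minus the wild-type mean; the dashed line marks equal values. Points lie above the line for 32 genes, and Oas3, which was not above background in wild-type cells, lies furthest below it.

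Among the antiviral effectors, the IFIT proteins bind viral RNA that lacks host cap marks and stop its translation. Ifit1 had levels of 0.92, 1.28, 1.33 and 2.15, a difference of 0.64 ± 0.29 (adjusted p = 0.305). Transgenic array 2 was well above the other 3 arrays, and transgenic array 1 was only slightly above wild-type array 2. Ifit3, with levels of 1.23, 1.15, 1.39 and 1.91, was also highest on transgenic array 2, with a difference of 0.46 ± 0.19 (adjusted p = 0.273). Ifit2 lay the other way, at -0.03, -0.40, -0.51 and -0.52, a difference of -0.30 ± 0.17 (adjusted p = 0.393), and its transgenic arrays lay together just below wild-type array 2. The promoter stretches of Ifit1 and Ifit3 shown above held 2 response element cores each, and the searched stretches of Ifit2 held none.

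The oligoadenylate synthetases make the messenger that switches on the RNA-degrading enzyme RNase L, and Oas2 had the largest difference of the 32 genes above background on all 4 arrays. It stood at 0.79, 0.87, 1.77 and 2.62, and the difference was 1.36 ± 0.28, or 2.57-fold with a 95% interval from 1.59 to 4.17 (adjusted p = 0.0885). Both transgenic arrays were above both wild-type arrays, which lay close together, and transgenic array 2 was again the higher. Oas2 was called when transgenic array 1 was left out (1.79, adjusted p = 0.0312) and when dim probes were kept (adjusted p = 0.0353), and its adjusted p ran from 0.0240 to 0.193 over the settings that kept every array. Oas3 did not stand well above background in wild-type cells, where its measured levels were -5.55 and -5.10, and was above it at -2.78 and -4.10 on the transgenic arrays. For a bound, each wild-type array was set at its lowest signal well above background, or the probe's own signal where that was higher. The transgenic mean was then 1.77-fold that of wild-type. Transgenic array 2, at -4.10, lay below the value so set for wild-type array 1, -3.60, so this ratio rested mostly on transgenic array 1. It is not a lower limit, as the fitted difference depended on the background method. The fitted difference was 1.89 ± 0.52 (adjusted p = 0.154). With normexp background correction it was 0.20, and 0.41 when quantile normalisation was added. Its order of transgenic arrays was opposite to that of Oas2, Oasl1 and Oasl2.

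Oasl1, which restrains translation of Irf7, had levels of 0.78, 1.51, 1.58 and 2.12, a difference of 0.70 ± 0.29 (adjusted p = 0.282). The wild-type arrays were themselves far apart here, so that transgenic array 1 was barely above wild-type array 2. Oasl2, at 2.51, 2.64, 2.48 and 2.97, overlapped between the groups (0.15 ± 0.18, adjusted p = 0.673).

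Of the Mx GTPases, which trap viral nucleocapsids, Mx1 was not above background on wild-type array 1 and measured -3.68, -3.18, -3.07 and -2.66 (difference 0.57 ± 0.30, adjusted p = 0.371; 0.089 with normexp background correction and 0.26 with quantile normalisation added). Mx2 measured 1.52, 2.10, 1.77 and 2.35, with groups that overlapped (0.25 ± 0.26, adjusted p = 0.642). Both genes were highest on transgenic array 2. Rsad2 encodes viperin, which makes a chain-terminating nucleotide, and was clearer between genotypes, at -1.43, -1.33, -0.82 and -0.41 (0.76 ± 0.19, or 1.70-fold, adjusted p = 0.135). Here both transgenic arrays were above both wild-type arrays by more than either pair's own gap. With normexp background correction the difference was 0.48.

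Bst2, or tetherin, which holds budding virus at the cell surface, overlapped between groups at 3.90, 3.64, 3.86 and 4.16 (0.24 ± 0.14, adjusted p = 0.411). The exonuclease gene Isg20 and Eif2ak2, whose product PKR halts translation on sensing double-stranded RNA, also overlapped, with differences of 0.06 ± 0.09 and -0.03 ± 0.14. Zbp1, a sensor of Z-form nucleic acid that triggers necroptosis, was lower on both transgenic arrays, at 2.40, 2.38, 1.68 and 2.17 (-0.46 ± 0.17, adjusted p = 0.242). A dimmer Zbp1 probe gave the opposite sign, 0.25, so the gene's direction depends on the probe, and the mean of the probes gave -0.11.

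Of the transcription factors, Irf1 and Irf8 lay on opposite sides. Irf1, an activator that interferon gamma induces, had levels of 7.27, 7.05, 6.40 and 6.66, lower on both transgenic arrays by -0.62 ± 0.14 (a ratio of 0.649, 95% interval 0.510 to 0.824, adjusted p = 0.104). With the mean of its probes the difference was -0.38. Of its promoter stretches, 1 held a gamma-activated sequence, and the response element core was absent from both. Irf8, a factor of the myeloid lineage, had levels of -0.65, -0.41, 0.01 and 0.63, higher on both transgenic arrays by 0.85 ± 0.24 (adjusted p = 0.154).

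Irf7, the factor that amplifies interferon alpha production, stood at 1.32, 1.37, 1.22 and 1.87 (0.20 ± 0.22, adjusted p = 0.656). Transgenic array 1 was the lowest of the 4 arrays and transgenic array 2 the highest, so the difference between genotypes rested on 1 array: without transgenic array 2 it was -0.12. Irf9 (0.09 ± 0.11) and Stat2 (0.18 ± 0.17), which are part of the complex that binds the response element, overlapped between groups.

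The cytosolic RNA sensors were close to even between genotypes. Ddx58, which encodes RIG-I, differed by 0.11 ± 0.11 (adjusted p = 0.622), and Ifih1, which encodes MDA5, by 0.11 ± 0.12 (adjusted p = 0.633). Dhx58, the regulator LGP2, stood at -0.81, -0.69, -0.52 and -0.31 (0.34 ± 0.15, adjusted p = 0.308) and did not overlap between groups.

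Trim25, the ubiquitin ligase that helps activate RIG-I, was the gene called higher, at 4.46, 4.61, 5.46 and 5.64 on its brighter probe. The difference was 1.02 ± 0.11, or 2.02-fold with a 95% interval from 1.68 to 2.44 (adjusted p = 0.0280). The arrays of each genotype lay close together and the groups were far apart. That probe lies at chr11:88881521-88881580 on the mm9 build. The second Trim25 probe, whose ends lie at chr11:88874956-88881181 so that it has to span a junction, stood at 3.79, 3.58, 3.69 and 3.69, a difference of 0.00, so the probes disagree on whether the gene differed. With the mean of both probes the difference was 0.51 and the call was lost (adjusted p = 0.0636). It was also lost without transgenic array 1 (adjusted p = 0.0699), without transgenic array 2 (adjusted p = 0.0910), with each array's median subtracted (adjusted p = 0.0518) and with no intensity trend (adjusted p = 0.109). Over the settings that kept every array, its adjusted p ran from 0.00643 to 0.109, and it was called in 10 of 13. The 300-base stretch around the Trim25 start held neither element.

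In ISG15 conjugation, the modifier and the enzyme that removes it lay on opposite sides. Isg15 had levels of 4.81, 4.98, 5.18 and 5.59, a difference of 0.49 ± 0.16 (1.41-fold, adjusted p = 0.194), and its second probe gave 0.44. Both transgenic arrays were above both wild-type arrays. Usp18, the protease that strips ISG15 from proteins and also dampens the interferon receptor, had levels of 3.32, 2.97, 2.42 and 2.67, a difference of -0.60 ± 0.15 (a ratio of 0.658, adjusted p = 0.138). Both transgenic arrays were below both wild-type arrays, though transgenic array 2 was again above transgenic array 1. When wild-type array 2 was left out, the difference was -0.73 for Irf1 and -0.78 for Usp18.

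Parp9 and Dtx3l, partners in a mono-ADP-ribosylation and ubiquitin ligase complex, differed by 0.15 ± 0.11 and 0.07 ± 0.14, and Parp14, a related transferase, by 0.26 ± 0.13, with no call among them. In antigen processing, the immunoproteasome subunits Psmb8 and Psmb9 differed by 0.09 ± 0.13 and 0.18 ± 0.09. Tap1, which carries peptides into the endoplasmic reticulum for MHC class I, stood at 0.08, 0.63, 0.79 and 1.05 (0.56 ± 0.21, adjusted p = 0.247). Wild-type array 1 was well below the rest for Tap1, and without wild-type array 2 the difference was 0.84.

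Rtp4, a chaperone of membrane receptors that interferon induces, had levels of 3.57, 3.72, 4.10 and 4.64 (0.72 ± 0.19, or 1.65-fold, adjusted p = 0.142). Both transgenic arrays were higher, in the order seen for most of the set. The apoptosis regulator Xaf1 (0.16 ± 0.14) overlapped between groups, and Ifi35, whose product binds other interferon-induced proteins, was lower on both transgenic arrays by -0.24 ± 0.10 (adjusted p = 0.302). Ifi44 was the gene not tested: it was well above background on transgenic array 2 alone, where its level was -3.75, against -5.82, -6.01 and -5.27 on the other arrays.

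**Figure D4:**
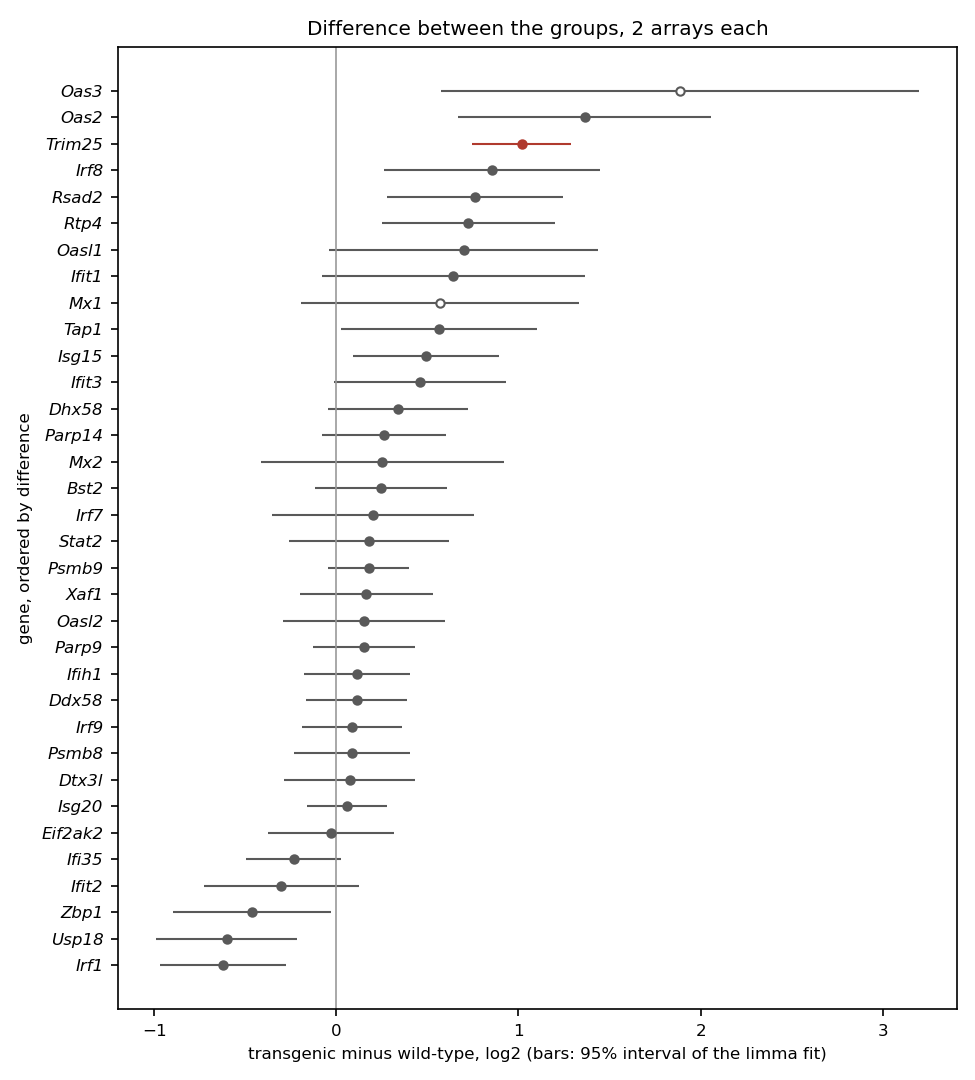
Transgenic minus wild-type log2 difference for the 34 tested genes (points, ordered by difference), with the 95% interval of the limma fit (bars), 2 arrays a group. Trim25, in red, is the gene called, and the open circles are Oas3 and Mx1, which passed the filter through the transgenic arrays alone.

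The rest of the pathway was read through a list of 136 other genes, of which 132 had a probe and 117 were tested. Of the 117, 1 was called higher, Nlrc5, and 0 lower, against 0.967% and 0.759% of all features. At an unadjusted p under 0.05, 16 were higher and 9 lower, against 9.25% and 9.76%. The median difference was 0.07. Between the transgenic arrays, 92 of the 117 were higher on array 2 (78.6%, against 50.8% of all features), with a median gap of 0.13.

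Of the interferon genes themselves, 9 were tested, 4 of which passed through the transgenic arrays alone. Interferon gamma (Ifng) measured -2.63, -3.07, -3.50 and -3.74, lower on both transgenic arrays (-0.77 ± 0.28, adjusted p = 0.231). Ifna13, 1 of those 4, was not above background on wild-type array 1 and measured -5.16, -4.61, -3.99 and -4.14. Its fitted difference was 0.82 ± 0.35 (adjusted p = 0.288). Near-identical interferon alpha genes can share a probe's target, so single members of that family are uncertain. Interferon beta (Ifnb1), which was singled out after its values were seen, was well above background on transgenic array 2 alone, as Ifi44 was, and was not tested; its levels were -5.55, -6.88, -5.42 and -3.27.

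The 8 receptor and kinase genes tested were all higher on transgenic array 2 than on array 1 (50.8% of all features), by a median of 0.06. Jak2, a kinase of the interferon gamma receptor, was at 2.79, 2.87, 3.19 and 3.34, with groups that did not overlap (0.43 ± 0.09, adjusted p = 0.102). Ifngr1, the ligand-binding chain of that receptor, was at 4.71, 4.71, 4.44 and 4.49 (-0.25 ± 0.08, adjusted p = 0.196), lower on both transgenic arrays.

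Nlrc5, the transactivator of MHC class I genes, stood at -3.43, -2.57, -0.80 and -0.79, a difference of 2.20 ± 0.32 (adjusted p = 0.0477). It was above background on 1 of the 2 wild-type arrays, and the transgenic arrays were nearly equal. The size depended on the background method: the difference was 1.15 with normexp correction and 1.27 with quantile normalisation added. The call was lost without either transgenic array (adjusted p = 0.119 without array 1 and 0.109 without array 2), with quantile normalisation (0.0695), with the median shift (0.0677), with the mean of its probes (0.0716) and with no intensity trend (0.118). Of the MHC class I genes that NLRC5 is known to activate, H2-K1 differed by 0.19 ± 0.10 (adjusted p = 0.383) and H2-D1 by -0.06 ± 0.11 (adjusted p = 0.820). Of the 10 class I and immunoproteasome genes tested, 0 were called, against 1.73% of all features, so a list this short says little. Tapbp (-0.34 ± 0.09, adjusted p = 0.140) and Psme1 (-0.30 ± 0.09, adjusted p = 0.164) had the smallest p of the 10. Among other transcription factors, Batf2, an interferon-induced factor of the AP-1 family, was higher by 0.89 ± 0.16 (adjusted p = 0.0687) and Irf4 lower by -0.71 ± 0.18 (adjusted p = 0.142).

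The guanylate-binding proteins and immunity-related GTPases, which attack vacuoles that hold pathogens and are induced chiefly by interferon gamma, varied by array in both genotypes. All 16 tested were higher on transgenic array 2 than on array 1, against 50.8% of all features, with a median gap of 0.41. In the wild-type pair 15 of 16 were higher on array 2 than on array 1, against 47.4% of all features, with a median gap of 0.35. Between genotypes 0 were called (1.73% of all features), 5 were higher at an unadjusted p under 0.05 (9.25% of all features), and the median difference was 0.38. Iigp1 was at 1.78, 2.27, 2.77 and 3.07 (0.89 ± 0.19, adjusted p = 0.102). Irgm1 was at 3.11, 3.32, 3.45 and 3.79 (0.40 ± 0.15, adjusted p = 0.235). For both genes the groups did not overlap, and the pairs of arrays were each apart in the same direction.

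Of the other effectors, Samhd1, which depletes the nucleotides a virus needs to copy DNA, was lower on both transgenic arrays at 5.68, 5.41, 4.68 and 4.97 (-0.72 ± 0.15, adjusted p = 0.0890). Ifi203, of the PYHIN family of nuclear proteins, was higher by 0.61 ± 0.16 (adjusted p = 0.138). The chemokine genes Cxcl9 and Cxcl10 overlapped between groups, with Cxcl9 at -0.20, -0.07, -0.46 and 0.66, lowest on transgenic array 1 and highest on array 2. Neither the chemokines, with 5 genes, nor the IFITM and IFI6/27 family, with 5, had a gene called. With 1.73% of all features called, lists this short say little. Of the negative regulators, the phosphatase gene Ptpn6, which blood cells also express, was above background on 1 of the 2 wild-type arrays and differed by 1.42 ± 0.29 (adjusted p = 0.0898), and Socs3 differed by -0.21 ± 0.14.

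Markers of other cell types differed between genotypes. Over all features 0.967% were called higher and 0.759% lower, the shares to set beside each list here. Of 17 macrophage and myeloid markers tested, 10 were called higher in transgenic cells, and 8 of the 17 passed the filter through the transgenic arrays alone. Among the 8 were Mrc1, Lyz2, C1qc, Ptprc and Laptm5, all of them called, so the filter favoured these calls. The summed signal of the macrophage and myeloid markers, in multiples of the array's 75th percentile, was 57.8 to 58.8 in wild-type and 63.7 to 65.9 in transgenic cells. Most of that sum came from Itgam. Of the 3 with the highest level, Itgam differed by -0.07 ± 0.09, Csf1r by 0.44 ± 0.14 and Cd14 by 0.86 ± 0.12 (adjusted p = 0.0444). Fcgr1, Cd163 and Cx3cr1 were not above background on any array. Of 7 dendritic cell and MHC class II markers, 3 were called higher, with a summed signal of 1.74 to 2.09 against 7.07 to 7.32. Of the 7, 2 passed the filter through the transgenic arrays alone, among them H2-Aa, which was called. Xcr1, Itgax and Clec9a were not above background on any array. Of 6 mature adipocyte markers, 1 was called higher, Fabp4. The summed signal, most of it from Fabp4, was 23.7 to 26.3 in wild-type and 98.6 to 106.6 in transgenic cells. Lep was not above background on any array. Of 7 pericyte and smooth muscle markers, 3 were called higher (Acta2, Notch3 and Rgs5), with a summed signal of 3.48 to 4.37 against 9.45 to 10.1. Rgs5 was above background on neither wild-type array and passed the filter through the transgenic arrays alone. Of 11 endothelial markers, 2 were called higher (Egfl7 and Ptprb), and 4 others passed the filter through the transgenic arrays alone. The summed endothelial signals overlapped at 18.4 to 22.9 and 19.1 to 20.5, and Erg was not above background on any array. Of 4 neutrophil markers tested 2 were called higher (S100a8 and S100a9), and of 8 lymphocyte markers 1 was (Cd3d). These passed the filter through the transgenic arrays alone. Of 6 plasmacytoid dendritic cell and 2 erythroid markers tested, 0 were called. Of the 12 progenitor markers 2 were called lower (Pi16 and Cd24a), and 9 had a difference below 0 and 3 above. The summed signal of the 12 was 3622 to 4435 in wild-type and 2928 to 2962 in transgenic cells. Most of the fall in this sum came from Pi16, at 10.23, 9.99, 9.03 and 8.87. The 3 above 0 were Pdgfra (0.08 ± 0.09), Pdgfrb (0.40 ± 0.12) and Thy1 (0.61 ± 0.12). For Irf8, Nlrc5 and Ptpn6, which blood cells also express, the part of these cell types in the difference between genotypes was not tested.

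Between the transgenic arrays these markers ran in both directions. Of the 17 macrophage and myeloid markers, 8 were higher on transgenic array 2 (median gap -0.05). Of the 6 plasmacytoid dendritic cell markers, listed for the main interferon-producing cells of blood, 1 was, and Spib was not above background on any array. Of these 6, 3 passed the filter through the transgenic arrays alone. The other 3, Siglech, Pacsin1 and Tcf4, had mean levels of 7.67, 4.99 and 3.20, within the range of the progenitor markers. Whether their signal came from plasmacytoid dendritic cells was not tested. All 8 lymphocyte markers tested were lower on transgenic array 2, by a median of 0.30 from array 1 to array 2, and markers not above background on any array included Cd8a, Klrb1c and Ncr1. Of the 6 mature adipocyte markers, 5 were higher on transgenic array 2 (median gap 0.16), among them Plin1, at -0.42 and 0.33 on the transgenic arrays, and Adipoq, at -0.12 and 0.22. Other markers higher on transgenic array 2 included the globin gene Hba-a1, at 1.77, 0.73, 1.41 and 2.79, and the neutrophil gene S100a9, not above background in wild-type cells and at -0.71 and 0.75 on the transgenic arrays. S100a8, at -2.08 and -1.58, Batf3, at -1.83 and -1.26, and Ccr9, at -4.60 and -3.97, were higher there as well. These were picked by direction: 2 of 4 neutrophil, 1 of 2 erythroid and 4 of 7 dendritic cell and MHC class II markers tested were higher there. Camp, at -1.41 and -2.04, Slc4a1, at -3.57 and -3.71, and Csf3r were lower on transgenic array 2. The summed neutrophil signal was 118 to 122 in wild-type cells and 150 and 136 on transgenic arrays 1 and 2. Nearly all of it came from Csf3r, at 6.88, 6.93, 7.22 and 7.07, so the sum says little of the other neutrophil markers. Mmp8 and Cxcr2 were not above background on any array. The summed erythroid signal, nearly all from Hba-a1, was 1.74 to 3.55 in wild-type cells and 2.78 and 7.05 on the transgenic arrays. Alas2 was among the erythroid markers not above background. The part of adipocyte, red blood cell and neutrophil RNA in the gap between the transgenic arrays was not tested.

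The gap between the transgenic arrays held under each way of processing that kept every array: 31 to 33 of the interferon response genes were higher on transgenic array 2, and the median gap lay between 0.27 and 0.35. The median difference between genotypes lay between 0.18 and 0.23 over the same settings, and it was 0.07 without transgenic array 2 and 0.40 without transgenic array 1.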

How the data were processed

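Total RNA of 2 wild-type and 2 transgenic samples was labelled with Cy3, per the labels' protocols. The intensity that the authors deposited per spot comes from Agilent Feature Extraction 10.7.3.1 (design 028005, mm9), background-subtracted and detrended within the array, per the file headers. The log2 value table that the authors deposited correlated at 0.9998 or more with these signals once they were shifted by the 75th percentile and each probe was centred, with column medians of 0.195, -0.021, -0.045 and 0.019; it served as an alternative, and its making is not described in the sources at hand.

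Control and outlier spots were left out, each array's 75th percentile of log2 signal over non-control spots was subtracted (the plan said probes, which is given as an alternative chosen after seeing the data), and spots of a probe were averaged; 56 probes lacked a value. Names came from RefSeq (GRCm38.p6) for 26582 probes, and 5 listed symbols were updated. Each gene was represented by the probe of highest mean, and was tested if well above background on every array of a genotype. The genotypes were contrasted in limma 3.58.1 (R 4.3.3, eBayes with intensity trend, 2-sided, 2 residual and 3.34 prior degrees of freedom, median SE 0.18), with Benjamini-Hochberg adjustment over 24518 features, calls being made at an adjusted p under 0.05. The fit was tested on simulated data. The number of arrays limits the precision.

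The genes and lists were chosen with earlier results of these data known. All 35 genes are named, and of other pathway genes those called, up to 4 per role with the smallest p and the one with the highest level. Alternatives covered scaling, background, dim probes, probe choice, variance model, a replicate block and each array left out. Same-numbered arrays shared only a number (correlation of the array gaps 0.0032 over features). No annotation of exons was used for mm9 positions.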

Additional observations from a re-analysis of the deposited data

How the results depend on the processing

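With the intensity trend dropped, 0 features were called (4124 at an unadjusted p under 0.05), and with dim probes kept 695 were, against 423. Of the interferon response genes 1 was called in the reported fit; 0 were with the median shift (8 at an unadjusted p under 0.05), the mean of probes (10) or no trend (8), and 2 with dim probes kept (Trim25 and Oas2). Of the other pathway genes, where 1 was called, 0 were with quantile normalisation (29 at an unadjusted p under 0.05), the median shift (19), probes above background on all 4 arrays (21), the mean of probes (25) or no trend (19), and 2 with dim probes kept. The cause of these changes was not tested.

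With a replicate block, which pairs arrays by number though the numbers do not pair the samples, 774 features, 4 interferon response genes (Trim25, Oas2, Oasl1 and Rtp4) and 5 other pathway genes were called.

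Leaving out each array in turn gave 89 to 3998 called features, lowest without transgenic array 1 and highest without wild-type array 2; 114 were called without transgenic array 2 and 1297 without wild-type array 1. It gave 0 to 4 interferon response genes, with 4 without wild-type array 2 (Trim25, Tap1, Irf1 and Usp18) and 0 without transgenic array 2, and 0 to 9 other pathway genes, with 9 without wild-type array 2, 2 without wild-type array 1 and 0 without either transgenic array. In these fits the lone array is assumed to vary like the other group.

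Where leaving out an array changed the sign of a gene's difference, the values ran from -0.093 to 0.40 for Oasl2, -0.037 to 0.54 for Mx2, -0.0027 to 0.12 for Isg20, -0.20 to 0.14 for Eif2ak2, -0.12 to 0.53 for Irf7, -0.035 to 0.21 for Irf9, -0.0052 to 0.23 for Ddx58, -0.11 to 0.25 for Dtx3l and -0.0010 to 0.33 for Xaf1, each lowest without transgenic array 2 and highest without transgenic array 1. They ran from -0.047 to 0.41 for Stat2 and -0.075 to 0.25 for Psmb8, lowest without wild-type array 1 and highest without wild-type array 2. With every array, Eif2ak2 turned positive with quantile normalisation (0.0045) and normexp (0.0244), and the mean of probes turned Ddx58 (-0.020) and Dtx3l (-0.064). The other 31 genes kept their sign in the alternatives with every array in which they were fitted, 11 for Oas3 and Mx1 and 12 for the rest.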

Other observations

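Among 12244 named features above background on all 4 arrays, the 40 with the largest rise from transgenic array 1 to transgenic array 2 held 0 of the interferon response genes and 2 of the other pathway genes, Gvin1 and Cxcl9. The genes named next were picked after their values were seen. Several belong to mitosis: Kif20a, a kinesin of cell division, stood at -1.55, -1.84, -0.79 and 0.36 on wild-type arrays 1 and 2 and transgenic arrays 1 and 2, and Aspm, a spindle protein gene, at -2.04, -2.52, -1.33 and -0.22. The globin gene Hbb-bt stood at 0.10, -1.17, -0.10 and 1.20. The clock genes Nr1d2 and Dbp were lowest on transgenic array 1, with Nr1d2 at 1.62, 0.88, 0.04 and 1.46 and Dbp at 3.29, 1.51, 1.40 and 2.75. None of these genes was called between genotypes.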
